A study of Rattus norvegicus with 3 samples.

Results

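The synaptic vesicle fusion gene families were followed across 3 arrays of rat brainstem RNA. Membership was set by name alone: every gene whose single symbol in the platform's probe table is Syt, Stx, Stxbp, Vamp, Snap, Cplx or Syn followed by a digit. This gave 49 genes of the 14217 that carry a single symbol: 16 synaptotagmins, 12 syntaxins, 7 VAMPs, 4 syntaxin-binding proteins, 4 Snap genes, 3 complexins and 3 synapsins. Each gene was represented by the probe set that was brightest on average over the 3 arrays. The arrays came from 1 sham group, 1 group labelled TBI (traumatic brain injury) and 1 group labelled Hand Acu (acupuncture applied by hand), with tissue taken 1 h after modelling. The labels also name damaged cortex, which was not analysed here. The labels name neither the rat strain, sex nor age, and do not say whether the acupuncture group was also injured or where needles were placed. The series' design text states that material of 5 animals was mixed, which is taken here as 1 pool for each array. With 1 array a group no difference below has a replicate error and no test could be run, so every statement compares 3 pools of RNA. In bulk tissue, fewer cells of a type and less RNA per cell cannot be told apart.

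Fusion of a synaptic vesicle with the plasma membrane is driven by SNARE proteins. A vesicle SNARE of the VAMP family zips together with a syntaxin and a SNAP-25 type protein of the target membrane. Synaptotagmins that bind calcium couple the assembled complex to the calcium signal, and others of the family do not bind it. Complexins clamp and activate the complex, syntaxin-binding proteins control access to syntaxin, and synapsins hold vesicles in reserve. Other members of the same families carry out fusion at the endosome, Golgi, endoplasmic reticulum or lysosome of every cell, so the families mix neuronal and general genes. Snap91 shares only the letters of its symbol: it encodes AP180, a clathrin assembly protein of synaptic vesicle retrieval.

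Promoter sequence is shown for 4 members. Syn1 and Vamp2 hold motifs of factors that respond to neuronal activity, and Cplx1 and Cplx2 are the pair of complexins whose signals behaved differently on these arrays. The sequences are RefSeq's on the rat assembly GRCr8, the 250 bases upstream of the annotated start, written 5′ to 3′ on the strand of the gene. Capitals mark matches to the motifs searched.
Syn1, chrX:3725495-3725744, plus strand: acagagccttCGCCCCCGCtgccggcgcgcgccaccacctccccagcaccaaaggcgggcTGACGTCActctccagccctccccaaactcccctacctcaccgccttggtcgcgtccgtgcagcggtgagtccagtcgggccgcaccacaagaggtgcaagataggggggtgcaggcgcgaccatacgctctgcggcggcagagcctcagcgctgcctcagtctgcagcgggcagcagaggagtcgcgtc
Vamp2, chr10:54292539-54292788, plus strand: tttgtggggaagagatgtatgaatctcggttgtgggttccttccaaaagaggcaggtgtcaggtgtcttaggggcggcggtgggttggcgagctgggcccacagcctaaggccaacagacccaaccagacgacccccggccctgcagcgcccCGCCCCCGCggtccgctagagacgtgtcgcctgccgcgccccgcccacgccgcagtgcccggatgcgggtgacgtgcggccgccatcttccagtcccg
Cplx1, chr14:1328823-1329072, plus strand: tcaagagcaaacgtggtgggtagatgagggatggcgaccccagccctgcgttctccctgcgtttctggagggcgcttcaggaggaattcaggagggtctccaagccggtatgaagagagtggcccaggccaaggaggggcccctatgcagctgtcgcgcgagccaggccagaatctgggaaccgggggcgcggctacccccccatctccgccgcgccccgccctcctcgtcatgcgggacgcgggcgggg
Cplx2, chr17:10236754-10237003, minus strand: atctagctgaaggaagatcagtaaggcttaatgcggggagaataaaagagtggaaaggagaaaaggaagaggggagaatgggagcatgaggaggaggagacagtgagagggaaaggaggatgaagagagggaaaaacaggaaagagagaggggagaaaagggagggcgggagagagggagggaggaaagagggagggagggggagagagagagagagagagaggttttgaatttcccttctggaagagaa
The motifs, each searched on both strands, were the cyclic AMP response element TGACGTCA, the Egr element GCGGGGGCG, the AP-1 element TGACTCA and the TATA element TATAAA. The first and second do not overlap with each other in these windows. Of the 49 members, 38 had an upstream window in the table. The Egr element was found in 6 of the 38 (15.8%), namely Stxbp5, Syn1, Syn2, Syt1, Vamp2 and Vamp4, against 2.65% of all 27457 genes. The cyclic AMP response element was found in 2 members, Syn1 and Vamp1 (5.26%, against 1.78% of all genes). The TATA element was in Stxbp3 and Syt16 (5.26%, against 14.1%), and the AP-1 element was in 0 of 38 members, against 4.42%. The windows of the members had a median GC content of 60.8%, against 51.2% over all windows, and the Cplx1 and Cplx2 windows had 68% and 50.8%. A match is a description of the letters and not evidence of binding.

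Values are log2 of the MAS5 signal, the Affymetrix summary of a probe set, and a difference of 1 is a doubling. Signals of different probe sets are not comparable with each other, so levels below are compared only between arrays. Because MAS5 values scatter near background, members were described in full only if their mean log2 signal reached 7.44, the median of all non-control probe sets. Above that floor lay 35 members and 9241 genes in all. The 35 comprised 10 of 12 syntaxins, all 7 VAMPs, 7 of 16 synaptotagmins, all 4 Snap genes, 3 of 4 syntaxin-binding proteins, 2 of 3 complexins and 2 of 3 synapsins. A member was counted as apart if its difference reached 0.32 in log2, a linear ratio of 5 to 4, which is called the size threshold below. It was counted separately if its difference lay outside the central 95% of genes of like mean signal. The median signal was between 174.1 and 174.7 on the 3 arrays. The beta-actin 3′ to 5′ signal ratio, which grows as RNA degrades, was 5.58 in the sham pool, 6.37 in the TBI pool and 6.69 in the Hand Acu pool. The same ratio of Gapdh was 1.2497, 1.2034 and 1.2797 in that order, lowest in the TBI pool.

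**Figure D1:**
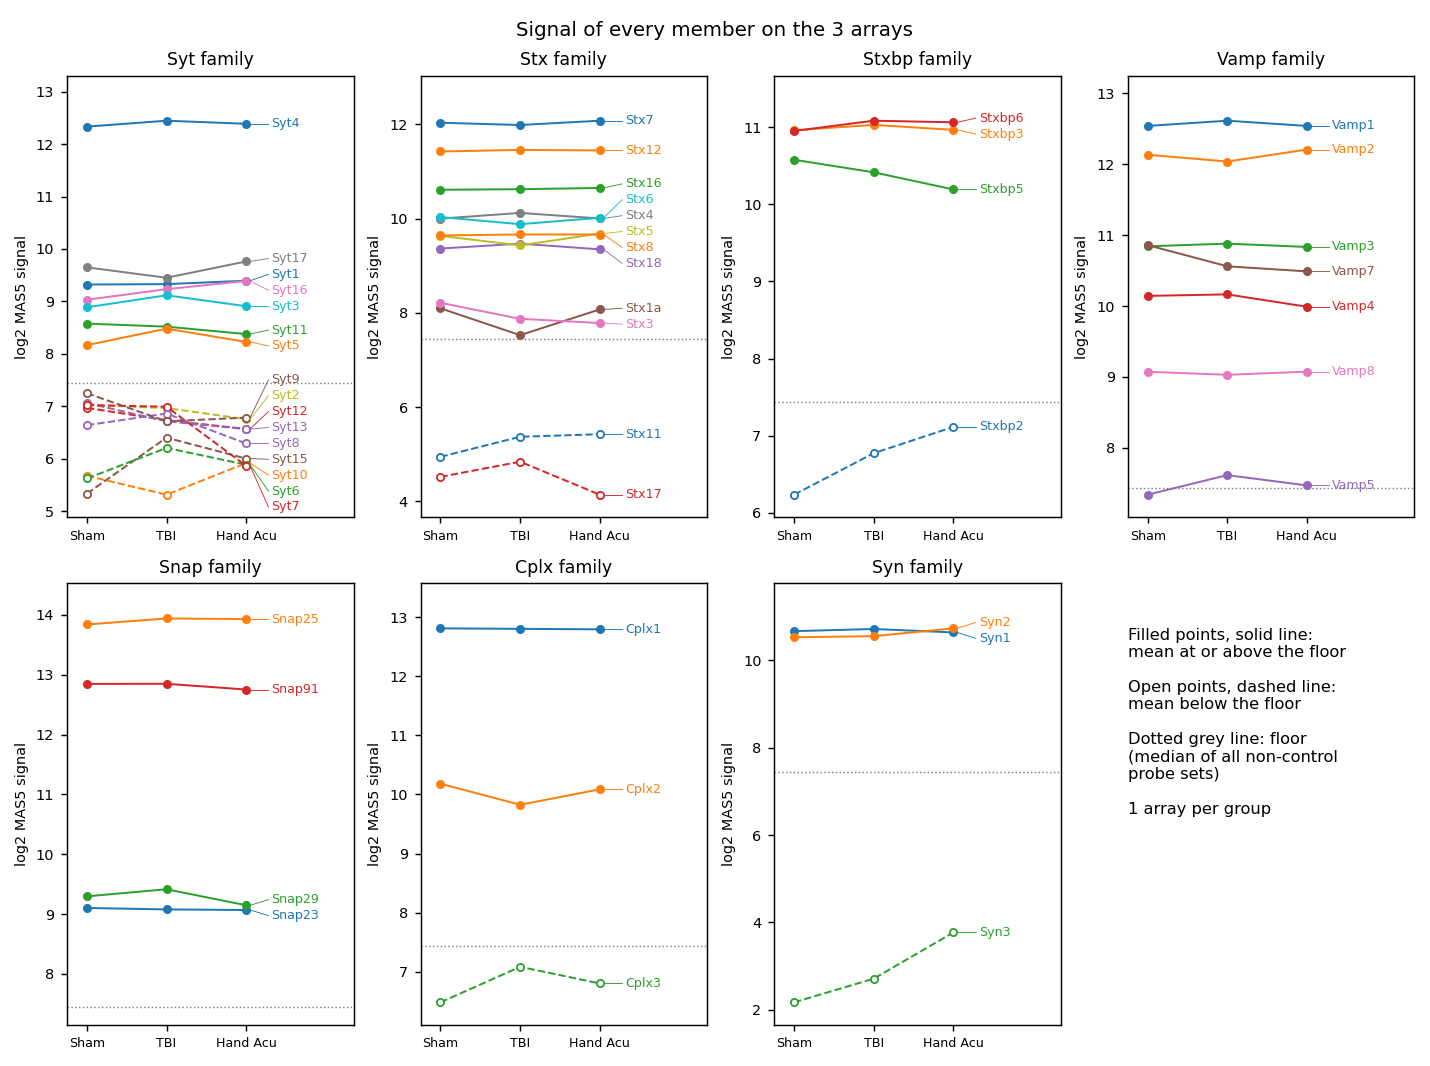
Log2 MAS5 signal (y axis) of all 49 members on the Sham, TBI and Hand Acu arrays (x axis), 1 panel per gene family and 1 array per group. Lines are nearly level for most members above the dotted floor of 7.44, with dips on the TBI array for Stx1a and Cplx2, while members below the floor cross each other.

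Most members above the floor had nearly the same signal on all 3 arrays. The range over the 3 arrays had a median of 0.13 over the 35 members (from 0.016 for Cplx1 to 0.57 for Stx1a), against 0.18 over all 9241 genes. Bright probe sets vary less, and 19 of the 35 had a range below the median of genes of like signal, so the members were about as steady as other genes of their brightness. In all 3 comparisons 29 members (82.9%) stayed under the size threshold, against 80.8% of all genes. The median difference of the members was 0.02 for TBI minus Sham, −0.02 for Hand Acu minus TBI and 0.0029 for Hand Acu minus Sham, and the medians of all genes were 0.0043, −0.0024 and 0.0037.

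The core SNAREs of transmitter release were represented by Stx1a, Snap25, Vamp1 and Vamp2. Snap25, which supplies 2 of the helices of the complex, had signals of 13.84 in the sham pool, 13.94 in the TBI pool and 13.93 in the Hand Acu pool. Vamp1, the vesicle SNARE common in the hindbrain and spinal cord, had 12.54, 12.61 and 12.54. The widest difference between arrays was 0.10 for Snap25 and 0.07 for Vamp1. The further Vamp1 probe sets had 10.54, 10.54 and 10.37, and 6.07, 5.78 and 6.93, the last set below the floor. Under quantile normalization Snap25 differed by 0.09 for Hand Acu minus TBI in place of −0.01.

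Vamp2, the main vesicle SNARE of forebrain synapses, had 12.13 in the sham pool, 12.04 in the TBI pool and 12.21 in the Hand Acu pool. Hand Acu exceeded TBI 1.12-fold, a log2 difference of 0.169 just past the upper bound of 0.166 for genes of like signal, and exceeded sham 1.05-fold. Its other probe set lay far below the floor, with 4.53, 5.02 and 5.36, and did not dip on the TBI array. Averaged over both probe sets, TBI minus Sham was 0.20 in place of −0.10.

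Stx1a, the syntaxin of the presynaptic membrane, had the largest differences of the 35 between TBI and both other arrays. Its signals were 8.10, 7.53 and 8.07 in the same order, so that the TBI array was 1.48-fold below sham and the Hand Acu array 1.46-fold above TBI, while Hand Acu and sham differed by −0.02. Both differences lay inside the range of genes of like signal, which at this low signal ran from −0.57 to 0.57 for TBI minus Sham. They also share the TBI array, so 1 low value on it gives both. The second Stx1a probe set went the other way, with 5.15, 5.79 and 4.93, all below the floor.

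The complexins split. Cplx1, a clamp and activator of the SNARE complex, was the steadiest member, with 12.81, 12.80 and 12.79 on the sham, TBI and Hand Acu arrays. Its second probe set had 8.73, 8.73 and 8.57. Cplx2, the close homolog found mainly in forebrain and excitatory neurons, had 10.18, 9.83 and 10.09. The TBI array was the low one: Cplx2 was 1.28-fold lower there than on the sham array, a difference of −0.36 that lay outside the range of −0.33 to 0.34 for genes of like signal. The Hand Acu array was 1.20-fold above TBI, a difference of 0.26 that fell just inside the upper bound of 0.27, and 1.07-fold below sham. The array has 1 Cplx2 probe set, so no second measurement of it exists here. Cplx3, the complexin of retinal ribbon synapses, was below the floor with 6.49, 7.09 and 6.81.

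The Stx1a and Cplx2 pattern, low on the TBI array alone, was also that of some markers of forebrain and other excitatory neurons. Camk2a, a kinase of excitatory synapses, was −0.77 for TBI minus Sham and 0.59 for Hand Acu minus TBI. The vesicular glutamate transporter Slc17a7 was −0.74 and 0.49, and the transcription factor gene Neurod2 −0.56 and 0.41, in the same order. Of the forebrain list, 8 of 10 measured genes were above the floor and 4 of the 8 were lower on the TBI array. Its striatal genes Adora2a and Ppp1r1b were higher there by 0.75 and 0.60. The median TBI minus Sham difference of the 8 was 0.09, so the list as a whole did not dip on the TBI array. The summed linear signal of the list was 7962 in the sham pool, 6621 in the TBI pool and 8120 in the Hand Acu pool. That sum is weighted towards Camk2a, the gene with the largest signal of the list, with 12.01, 11.23 and 11.82. Emx1 and Tbr1 were below the floor. The part of these cells in the Stx1a and Cplx2 values was not tested.

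The first comparison sets the group labelled TBI against its sham control. No member was past the size threshold upwards on the TBI array, where 5.05% of all genes were. Past it downwards were 3 of 35 (8.57%), against 5.05% of all genes: Stx1a, Cplx2 and Stx3. Outside the range of genes of like signal lay Cplx2 and Vamp7, 2 of 35 (5.71%) against 5.19% of all genes. The members' shares were thus near the background. In direction alone 21 of 35 were higher on the TBI array and 14 lower, where 51.0% of all genes were higher.

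The second comparison sets the group labelled Hand Acu against the group labelled TBI. Stx1a alone was past the size threshold upwards on the Hand Acu array, 1 of 35 (2.86%) against 4.04% of all genes, and 0 members were as far lower, against 4.12%. Outside the range of like signal lay Syt17 and Vamp2, both higher, which is 5.71% against 5.19%. Higher on the Hand Acu array were 12 of 35 members (34.3%, against 49.3% of all genes) and lower were 23. Within 0.1 of 0 were 18 of the 35 (51.4%, against 51.9%).

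Hand acupuncture was also set against sham. Here Syt16 alone was past the size threshold upwards (2.86%, against 5.5% of all genes), and Stx3, Stxbp5 and Vamp7 were as far lower (8.57%, against 5.46%). Stxbp5 and Vamp7 lay outside the range of like signal, 5.71% of the members against 5.19% of all genes. In this comparison 24 of 35 members (68.6%) differed by no more than 0.1, against 47.0% of all genes. For TBI minus Sham 17 of 35 (48.6%) did so, against 46.3%. The shares of all genes are not matched for signal, and bright probe sets vary less. Hand Acu minus Sham shares the sham array with the first comparison and the Hand Acu array with the second.

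**Figure D2:**
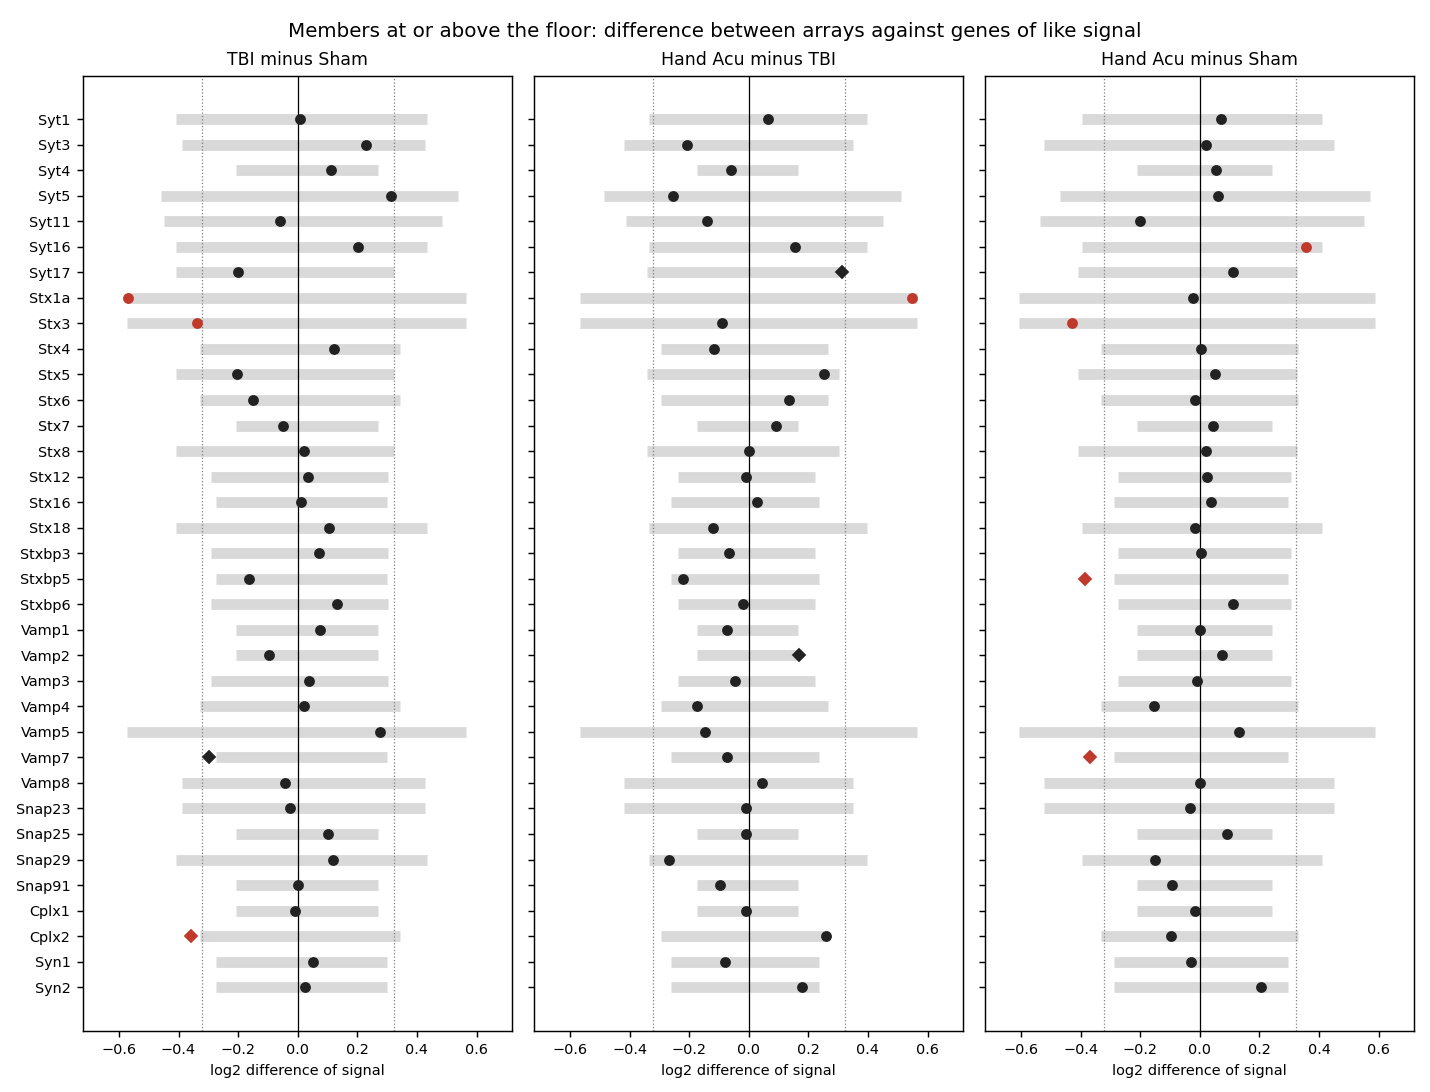
Log2 difference of signal (x axis) for the 35 members at or above the floor (y axis, by family) in each comparison. Grey bars span the central 95% of genes of like signal, dotted lines mark the size threshold of 0.32, red points pass it and diamonds lie outside the bar. The bars narrow with signal, so Stx1a at −0.57 stays inside its bar and Vamp2 at 0.17 does not.

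Among the synaptotagmins, Syt1, the calcium sensor of fast synchronous release, was steady, with 9.32 in the sham pool, 9.33 in the TBI pool and 9.39 in the Hand Acu pool. Syt4, found on dense-core vesicles, had 12.33, 12.45 and 12.39. Its second probe set, also above the floor, had 9.79, 9.58 and 9.40, so the measurements of Syt4 differ in the direction of TBI minus Sham (0.11 and −0.21). Syt11, a synaptotagmin that does not bind calcium, had 8.58, 8.52 and 8.38.

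Syt3 and Syt5, both calcium-binding, were highest on the TBI array. Syt3 had 8.89, 9.12 and 8.91 and Syt5 had 8.16, 8.48 and 8.23. The excess over sham was 0.23 for Syt3 and 0.31 for Syt5, each within the range of genes of like signal. The second probe set of Syt3, below the floor, was lower on the TBI array than on the sham array by 0.41.

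Syt16 and Syt17 are atypical members of the family that lack the usual membrane anchor. Syt16 had 9.03 in the sham pool, 9.23 in the TBI pool and 9.39 in the Hand Acu pool, which put Hand Acu 1.28-fold above sham, inside the range of like signal. Syt17 had 9.65, 9.45 and 9.76, and was 1.24-fold higher on the Hand Acu array than on the TBI array, with 0.31 against an upper bound of 0.30. The second probe set of Syt17 was above the floor and went the same way for both comparisons with TBI, with 8.10, 7.73 and 7.86. Over the 7 synaptotagmins above the floor the median difference was 0.11 for TBI minus Sham, with 5 higher, and −0.06 for Hand Acu minus TBI. The first of these was −0.01 with no floor and −0.02 when probe sets of a gene were averaged.

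The other 9 synaptotagmins were below the floor, including Syt2, the fast calcium sensor of many brainstem and spinal synapses, with 7.03, 6.96 and 6.75. Syt7, a high-affinity sensor of slow release, had 7.02, 6.99 and 5.86 in its brightest probe set. The Hand Acu array was low there, but the other probe sets had 5.29, 4.46 and 5.62, and 3.16, 3.96 and 3.66, with the Hand Acu array highest in one and between the others in the other. Syt15 had the largest TBI minus Sham difference of the 49, at 1.07, from 5.33 and 6.40. None of these differences can be separated from the scatter of signals near background.

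The syntaxin-binding regulators above the floor were Stxbp3, Stxbp5 and Stxbp6. Stxbp5 encodes tomosyn, which binds syntaxin and SNAP-25 in place of the vesicle SNARE and restrains release. It had 10.58 in the sham pool, 10.42 in the TBI pool and 10.19 in the Hand Acu pool. The Hand Acu array was 1.31-fold below sham, a difference of −0.38 outside the range of −0.29 to 0.30 for genes of like signal. A second Stxbp5 probe set above the floor had 9.98, 9.62 and 9.66. It too was lower on the Hand Acu array than on the sham array, by −0.32, but it had the TBI array as low as Hand Acu. The third, just below the floor, was level, with 7.35, 7.42 and 7.43. Averaged over the 3 probe sets Hand Acu minus Sham was −0.21, under the size threshold.

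Stxbp6, which encodes amisyn, another protein with a SNARE motif that competes with VAMP, had 10.95, 11.08 and 11.06, and its second probe set 8.61, 8.83 and 8.86. Both were lowest on the sham array. Stxbp3, a Munc18 family protein of general exocytosis, had 10.96, 11.03 and 10.97. Stxbp2, its relative in blood cells and epithelia, was below the floor with 6.23, 6.77 and 7.11.

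Vamp7 and Stx3 were both highest on the sham array and past the size threshold downwards on the Hand Acu array. Vamp7, a vesicle SNARE of late endosomes and lysosomes that also serves neurite outgrowth, had 10.86 in the sham pool, 10.56 in the TBI pool and 10.49 in the Hand Acu pool. It was 1.23-fold lower for TBI and 1.29-fold lower for Hand Acu, both outside the range of genes of like signal. It has 1 probe set, and a high sham value alone gives both differences.

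Stx3, a syntaxin of apical membranes and of ribbon synapses, had 8.21, 7.87 and 7.78 in the same order. It was 1.26-fold lower on the TBI array and 1.35-fold lower on the Hand Acu array, both inside the wide range at this signal. With 50 added to the linear signals the TBI difference was −0.28, under the size threshold. Its second probe set, below the floor, had the same order, with 6.09, 5.61 and 5.21. Of the 8 members past either rule, Stx3 was the one whose further probe set went the same way in all 3 comparisons.

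Most markers of cerebellar neurons were also lower on both arrays than on the sham array. The exceptions above the floor were Zic2, higher on the Hand Acu array (0.19), and Pcp4, higher on both (0.05 for TBI and 0.03 for Hand Acu). The brainstem label was checked against defining genes. Of 12 measured brainstem neuron genes 6 were above the floor, and Dbh, Fev, Glra1, Phox2a, Slc6a2 and Slc6a5 were below it. All 6 above the floor were higher than sham on both other arrays, with a median difference from sham of 0.36 for TBI and 0.31 for Hand Acu. Past the size threshold upwards were 3 of the 6 in each, against 5.05% and 5.5% of all genes. The largest above the floor was Hoxa5, a gene of the caudal hindbrain, at 1.22 and 0.99. Below the floor, Glra1 (−0.34 for TBI and −0.55 for Hand Acu) and Slc6a5 (−0.12 and −1.03) were lower than sham on both arrays. Fev was lower for TBI and higher for Hand Acu (−0.31 and 0.44). Dbh, Phox2a and Slc6a2 were higher on both. The summed linear signal of the list was 2384, 3052 and 2895. Cerebellar granule cell markers were above the floor in 10 of 11 cases, with a median difference of −0.57 for TBI minus Sham, 0.0075 for Hand Acu minus TBI and −0.56 for Hand Acu minus Sham. Their summed linear signal was 27172 in the sham pool, 18618 in the TBI pool and 18965 in the Hand Acu pool, with Zic1 below the floor. For Purkinje cell markers the sums were 31799, 28133 and 27167, and 7 of 8 were lower than sham on each of the other arrays. General neuron markers had sums of 62420, 64456 and 63945. The part of cerebellar or brainstem neurons in the Vamp7 and Stx3 values was not tested.

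Of the endosomal, lysosomal, Golgi and endoplasmic reticulum SNAREs, 10 of 11 were above the floor. Among these 10, Vamp7 alone reached the size threshold, downwards for Hand Acu minus Sham (10%, against 5.46% of all genes). The medians of the 10 were 0.02 for TBI minus Sham, −0.0056 for Hand Acu minus TBI and 0.0024 for Hand Acu minus Sham. Stx8, of late endosomes, had 9.64, 9.66 and 9.66, and its partner Stx7 had 12.04, 11.99 and 12.08. Stx12, of recycling endosomes, had 11.42, 11.46 and 11.45. Stx16, of the trans-Golgi network, had 10.61, 10.62 and 10.65, and Stx18, of the endoplasmic reticulum, had 9.36, 9.47 and 9.35. In their brightest probe sets these 5 genes stayed within 0.12 over the arrays. The second Stx12 probe set, also above the floor, had 8.37, 8.27 and 8.45, lowest on the TBI array.

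Stx5, of the Golgi, and Stx6, of the trans-Golgi network, dipped slightly on the TBI array. Stx5 had 9.63, 9.43 and 9.68 and Stx6 had 10.03, 9.88 and 10.02, with differences of −0.20 and −0.15 from sham, inside the range of like signal. Their second probe sets, below the floor, were higher on the TBI array than on the sham array, by 0.08 and 0.24. Snap29, a SNARE of autophagosome fusion, had 9.30, 9.41 and 9.15, and Vamp4, of the trans-Golgi network and endosomes, had 10.14, 10.16 and 9.99. Both were lowest on the Hand Acu array in their brightest probe sets. The second Vamp4 probe set, with 8.51, 8.82 and 8.53, was also lower there than on the TBI array, but was lowest on the sham array. The further Snap29 probe sets, below the floor, had 5.45, 5.40 and 5.41, and 4.88, 5.54 and 5.21. Neither was lowest on the Hand Acu array.

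At the cell surface, Stx4, a syntaxin of the plasma membrane, had 9.9999, 10.12 and 10.003, Snap23, the general relative of Snap25, had 9.10, 9.08 and 9.07, and Vamp3, of recycling endosomes, had 10.84, 10.88 and 10.83. Vamp8, an endosomal and secretory SNARE, had 9.07, 9.03 and 9.07. Vamp5, a VAMP of muscle, was at the floor with 7.34, 7.62 and 7.47. Stx17, the autophagosomal syntaxin, and Stx11, a syntaxin of immune cells, were below it. None of the 5 named first reached the size threshold in any comparison.

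The synapsins coat synaptic vesicles and tether them to the cytoskeleton. Syn1, whose promoter carries the Egr and cyclic AMP elements shown above, had 10.67 in the sham pool, 10.72 in the TBI pool and 10.64 in the Hand Acu pool. Its second probe set, also above the floor, had 7.93, 7.73 and 7.81, with the TBI array lowest and not highest. Syn2 had 10.53, 10.55 and 10.73, so the Hand Acu array was 1.15-fold above sham, inside the range of like signal. The other Syn2 probe sets above the floor had 10.03, 9.95 and 10.02, and 8.82, 8.82 and 8.66, and neither was highest on the Hand Acu array. Syn3 was near the bottom of the scale, with 2.17, 2.71 and 3.77. Snap91 had 12.85, 12.85 and 12.75.

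The TBI array was the highest of the 3 for 17 of 35 members (48.6%), against 33.4% of all genes above the floor, and the lowest for 8 (22.9%), against 31.7%. The 8 that were lowest there were Cplx2, Stx1a, Stx5, Stx6, Stx7, Syt17, Vamp2 and Vamp8. The sham array was highest for 9 members (25.7%, against 34.3% of all genes) and lowest for 15 (42.9%, against 36.3%). When the probe sets of each gene were averaged, 30.0% of members were highest on the TBI array.

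**Figure D3:**
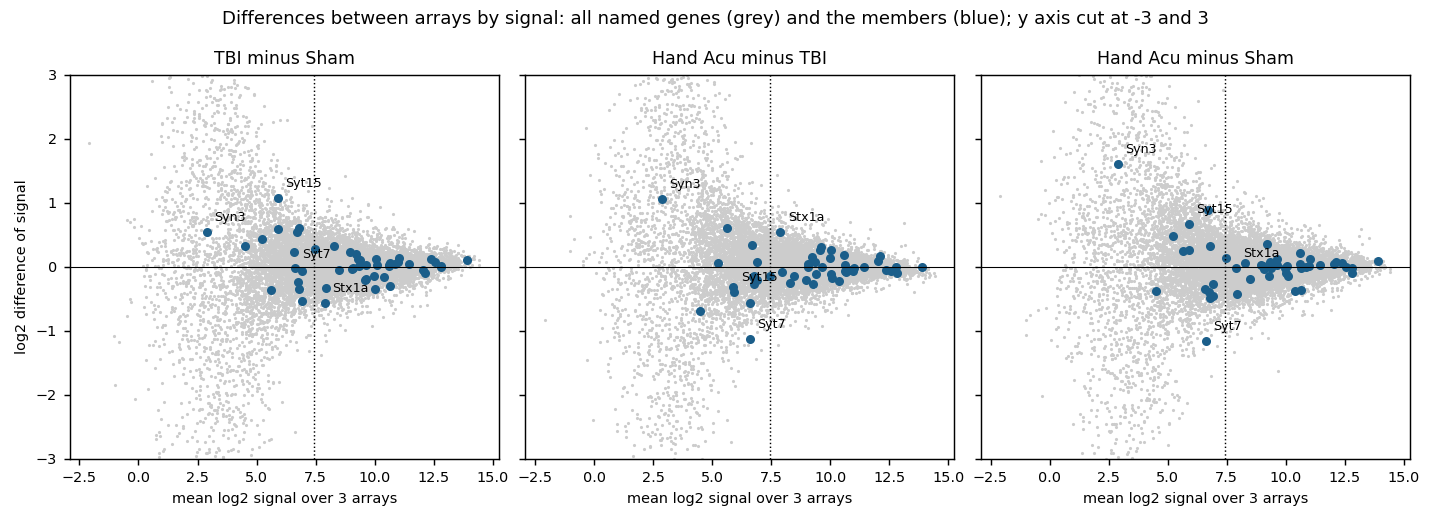
Log2 difference between arrays (y axis, drawn from −3 to 3) against mean log2 signal over the 3 arrays (x axis) for all named genes (grey) and the 49 members (blue) in each comparison, with the floor of 7.44 as a dotted line. The cloud widens to the left, and the members with the largest differences, Syn3, Syt7 and Syt15, lie in that wide part.

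The 14 members below the floor had ranges over the 3 arrays with a median of 0.59 (0.28 to 1.60). For TBI minus Sham 8 were higher and 6 lower, and for Hand Acu minus TBI 5 were higher and 9 lower. They are Syt2, Syt6, Syt7, Syt8, Syt9, Syt10, Syt12, Syt13, Syt15, Stx11, Stx17, Stxbp2, Cplx3 and Syn3. Past the size threshold with no floor were 12 of 49 members for TBI minus Sham, 8 for Hand Acu minus TBI and 14 for Hand Acu minus Sham. Of all 14217 genes 26.2%, 24.8% and 27.4% were as far apart in these comparisons.

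A second reading of the members comes from their further probe sets. The 49 genes have 77 probe sets, and 22 genes have more than 1. Above the floor there were 12 further probe sets of 11 members. For TBI minus Sham 6 of the 12 had the direction of the brightest probe set, for Hand Acu minus TBI 6 and for Hand Acu minus Sham 5. Over all genes the shares were 56.6%, 53.5% and 55.4%. The median gap between the log2 differences of a member's probe sets was 0.12, 0.14 and 0.16 in these comparisons, as large as most of the differences themselves.

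**Figure D4:**
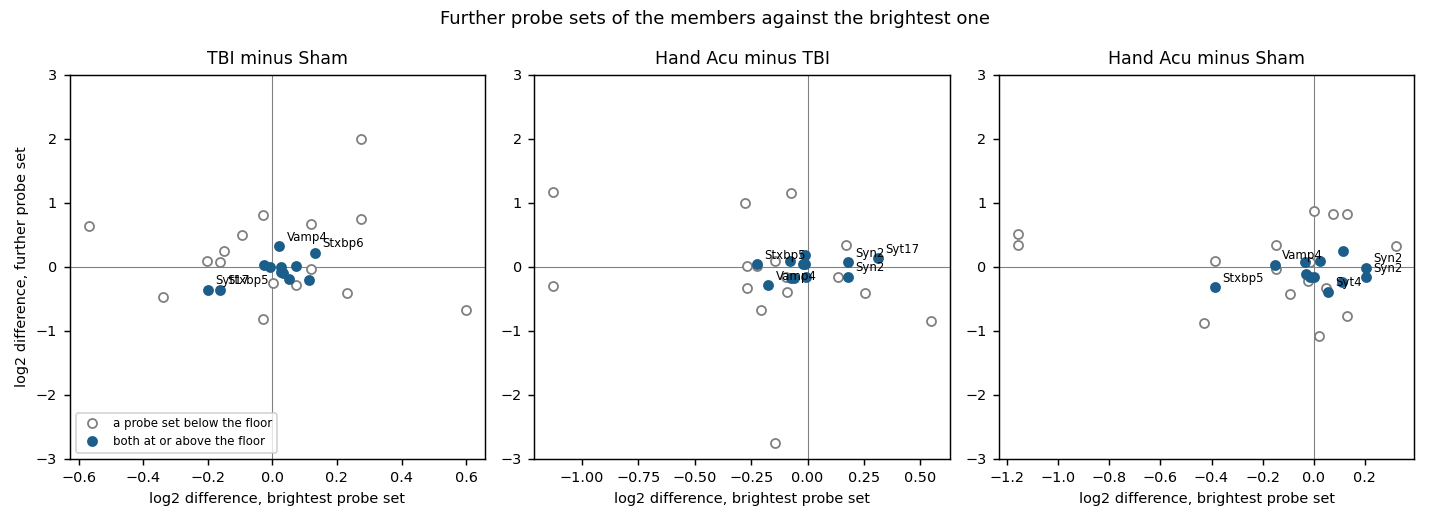
Log2 difference of each further probe set of a member (y axis) against that of its brightest probe set (x axis) in each comparison. Filled points have both probe sets at or above the floor and open points do not. The filled points stay close to 0 and fall on both sides of it, with 6 of 12 in the same direction for TBI minus Sham.

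The other genes of the vesicle cycle were read from 5 lists. In the active zone and priming list 14 of 22 measured genes were above the floor, and 11 of the 14 were lower on the TBI array than on the sham array, 3 of them past the size threshold (0 as far higher), with a median of −0.08. Of all genes above the floor 51.0% were higher in this comparison, and 5.05% were past the threshold downwards. For Hand Acu minus Sham 11 of 14 were again lower, where 51.0% of all genes were higher, and the median was −0.15. The 3 were Cadps2, a priming factor of dense-core vesicles, Unc13c, a Munc13 priming factor of cerebellar granule cells, and Rims1, an active zone scaffold. Cadps2 had 11.16 in the sham pool, 10.72 in the TBI pool and 10.80 in the Hand Acu pool. Unc13c had 10.22, 9.81 and 9.47. Both were lower on the TBI and Hand Acu arrays than on the sham array, as were the cerebellar marker sums given above, and the part of cerebellar cells in them was not tested.

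In the list of SNARE disassembly genes and presynaptic chaperones none of the 8 genes above the floor reached the size threshold in any comparison. The list holds Nsf, Napa, Napb and Napg, which take the complex apart, and Dnajc5, Sncb, Sncg and Prrt2, which do not. Nsf, the ATPase that unwinds the complex, had 12.24, 12.37 and 12.29, and its adaptor Napb had 12.24, 12.29 and 12.37. Vesicle membrane proteins, 9 above the floor, also had none past the size threshold. On both the TBI and the Hand Acu arrays 7 of the 9 were higher than sham, against 51.0% of all genes, with medians of 0.03 and 0.06. For Hand Acu minus TBI 4 of the 9 were higher, against 49.3%. Syp, synaptophysin, had 11.39, 11.61 and 11.50 and Sv2a had 11.32, 11.33 and 11.33.

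Of 16 vesicle transporter and proton pump genes above the floor, Slc17a7 was the one past the size threshold downwards on the TBI array, with 9.62, 8.87 and 9.36, and 0 were as far higher. That is 6.25% downwards, against 5.05% of all genes in each direction. Slc17a6, the vesicular glutamate transporter of brainstem neurons, had 12.26, 12.50 and 12.40, and Slc32a1, the transporter for GABA and glycine, 10.003, 9.84 and 9.90. For Hand Acu minus TBI, Slc17a7 and the zinc transporter gene Slc30a3 were past the size threshold upwards and 0 were as far lower. They are 12.5% of the 16, against 4.04% of all genes upwards and 4.12% downwards. Of 21 endocytosis genes none reached the size threshold for TBI minus Sham, where 5.05% of all genes did so in each direction. Ston2, an adaptor for synaptotagmin retrieval, had 7.80, 8.06 and 8.49 and was 0.43 higher on the Hand Acu array than on the TBI array. No other gene of the list was past the size threshold there (4.76% upwards, against 4.04% of all genes). Hand Acu was below sham for 15 of the 21 endocytosis genes, with a median of −0.08, and 0 were past the size threshold downwards. Of all genes above the floor 51.0% were higher in this comparison, and 5.46% were past the threshold downwards. Upwards, Ston2 and the scaffold gene Itsn1 were past it, at 0.69 and 0.40, which is 9.52% against 5.5% of all genes.

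**Figure D5:**
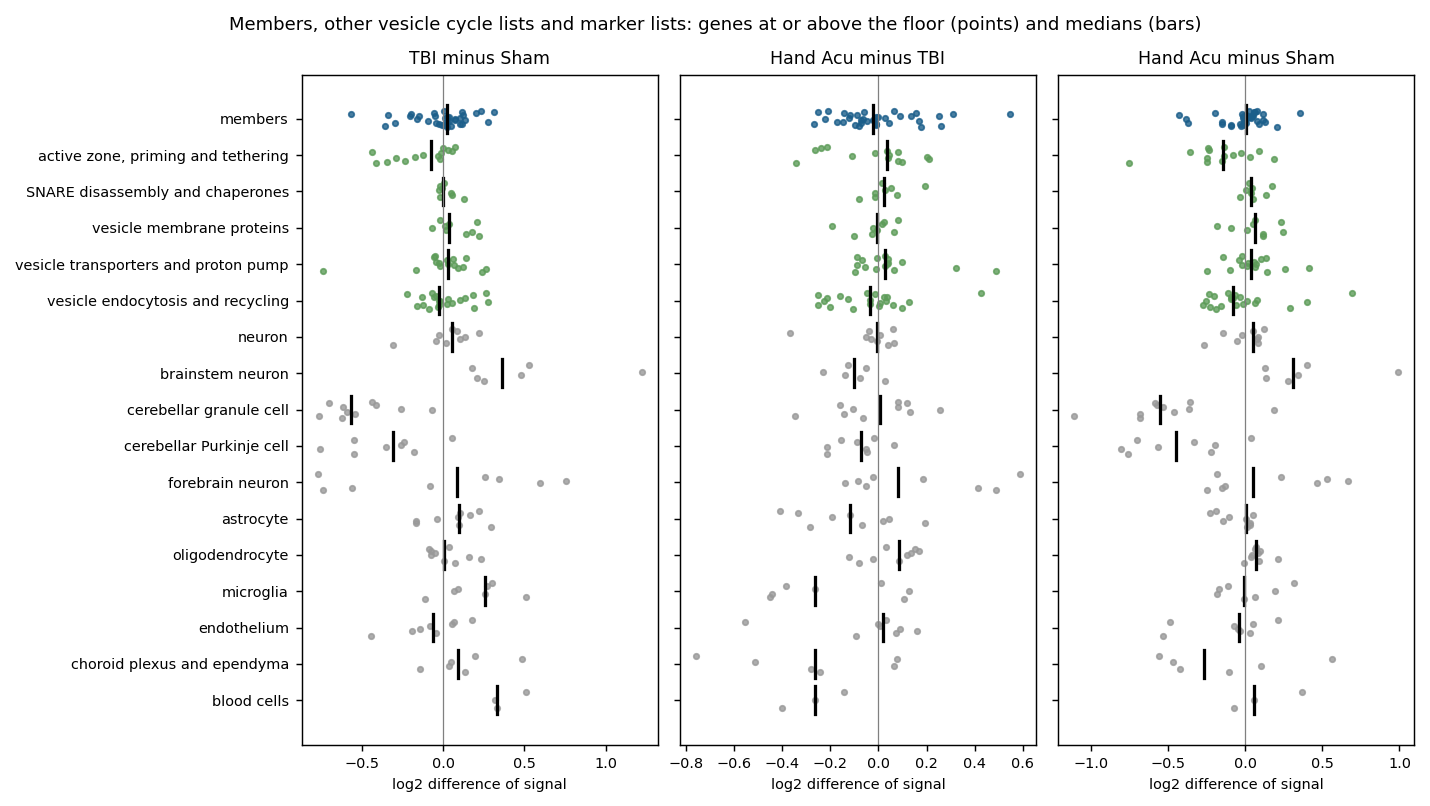
Log2 difference between arrays (x axis) for the members, 5 vesicle cycle lists and 11 marker lists (y axis), with points for genes at or above the floor and bars for medians. The members centre on 0 in each panel (medians 0.02, −0.02 and 0.0029), while the cerebellar granule cell list centres on −0.57 and −0.56 in the comparisons with sham.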

How the data were processed

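Log2 MAS5 signals of 31099 probe sets on 3 rat arrays were used as deposited. MAS5 is named in the submitters' processing notes without a version, and the log2 scale and the scaling of the deposited values were read from them: leaving out the extreme 2% on either side, each array averaged 500.0 in linear signal. Detection calls, the aligner of probes and a genome build are not given in the sources used here. RNA (6 µg) was labelled with biotin per the labels' protocols. Names came from the platform annotation of 2016: of 31042 non-control probe sets 20826 had 1 symbol, 436 several and 9780 none in that table. All 49 members were found by gene identifier in RefSeq's GRCr8 table, and 0 symbols differed.

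Members, lists and size rules were chosen with earlier results of these data known. The floor was the median of mean log2 signal over non-control probe sets. The range of like signal is the central 95% of differences in each of 10 equal groups of genes by mean signal. By rule, every member could be named. It was shown in full if it was core fusion machinery, past a size rule or the extreme of its family, and other lists gave up to 3 genes with the largest difference, with further genes named after their values were seen. Marker lists not named in the report were astrocyte (median TBI minus Sham 0.10), oligodendrocyte (0.0021), microglia (0.26), endothelium (−0.06), choroid plexus and ependyma (0.09), and blood cells (0.33). For Hand Acu minus TBI these were −0.12, 0.09, −0.27, 0.02, −0.26 and −0.26. Motifs and promoters were picked after the values were seen. Protein sequences were not used here. The code, tested on simulated data, used numpy 2.4.6 and pandas 2.3.3 under Python 3.11.15, and drew with matplotlib 3.10.9.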

Additional observations from a re-analysis of the deposited data

How the results depend on the processing

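The analysis was repeated with quantile-normalized arrays, with median-centred arrays, with no floor, with a floor raised to 9.25, with 50 added to linear signals, with probe sets averaged within genes, and with thresholds of 1.5-fold and 2-fold. The median difference of the members moved by less than 0.05 in all 18 alternative values. Counts of members past the size threshold of 0.32, 3 for TBI minus Sham, 1 for Hand Acu minus TBI and 4 for Hand Acu minus Sham, were 12, 8 and 14 of 49 with no floor, 1, 0 and 2 of 26 with the higher floor, and 0 in each at 1.5-fold and at 2-fold. Of all genes the shares in that order of comparisons were 26.2%, 24.8% and 27.4% with no floor, 4.80%, 3.37% and 5.20% above 9.25, 1.55%, 1.21% and 1.89% at 1.5-fold, and 0.0974%, 0.0433% and 0.195% at 2-fold. With averaged probe sets the counts of members were 1 and 0 of 30 in the comparisons with TBI, since Stx1a and Stx3 then lie below the floor. For Hand Acu minus Sham 2 of the 30 were then past the threshold upwards and 1 downwards, in place of 1 upwards and 3 downwards. Of all genes 10.6%, 8.49% and 10.9% were as far apart in that order of comparisons. The 2 members outside the range of like signal for Hand Acu minus TBI became 0 with the higher floor and 1 with averaged probe sets. Of the named members' differences 227 of 237 alternative values moved by less than the SD of genes of like signal. Each difference past either rule kept its sign wherever the member stayed above the floor. Stx1a and Stx3 have no value with averaged probe sets, and the second Stx1a probe set has the opposite sign in both comparisons with TBI. Stx1a, Stx3 and Syt16 have none with the higher floor. The median of the Snap family for TBI minus Sham, 0.05, was −0.007 under quantile normalization, and that of transporter genes, 0.03, was −0.03. With no replicate array, no array could be left out, and signal over background limits what can be read of the 14 members below the floor. No paired analysis was possible because each group has 1 array.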
